A study of Rattus norvegicus with 8 samples.

Results

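Integrins are the receptors by which the cells of the arterial wall hold on to the extracellular matrix (ECM). The 10 subunit genes described here, Itga1, Itga5, Itga7, Itga8, Itga11, Itgav, Itgb1, Itgb3, Itgb5 and Itgb8, encode the collagen-, laminin- and RGD-binding integrins of vascular mesenchymal cells. They were taken by their symbols from a count table of 37209 genes, and all 10 were found and had enough counts for a test, as did 14359 genes in all. The libraries came from male Sprague-Dawley rats of about 400 g, whose age and genotype the labels do not give. In the injury group, a balloon catheter had been used on the left carotid artery and the vessel was collected 2 weeks later. The control group consisted of undamaged right carotid arteries, which the paper describes as self-controls, the opposite vessels of injured rats. Each group held 4 arteries, which are named here by group and replicate number, and the labels do not state which injured and control artery came from the same rat or whether arteries were pooled.

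An integrin is a heterodimer of 1 α and 1 β subunit, and the pair decides which matrix protein is bound. The β1 chain joins many α chains. With α1 or α11 it binds collagen, with α7 it binds laminin, and with α5 or α8 it binds ligands that carry the RGD motif, such as fibronectin for α5 and nephronectin for α8. The αv chain can join β1, β3, β5 or β8 and binds RGD ligands such as vitronectin and osteopontin, and αv with β8 is known for binding latent TGF-β. Inside the cell, the β tail is bound by talin and kindlin, which couple the receptor to actin. In the healthy artery, α8β1, α7β1 and α1β1 are typical of differentiated vascular smooth muscle cells (VSMCs).

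The libraries held 13470754 to 15276952 counts in the control group and 11459632 to 16658089 counts after injury, so that 3 counts, the smallest level used here, corresponded to at most 0.246 CPM (counts scaled to the size of the library), a floor for counting error only. CPM here are scaled with TMM factors, and they are not divided by transcript length, so levels were compared between arteries and not between genes. Control 4 stood apart, with a correlation of log2 CPM of 0.83 to 0.852 with the other controls over 14359 genes, against 0.976 to 0.978 among those. The 8 markers of sympathetic neurons summed to 11920 CPM in control 4 and 3604 CPM in injury 3, against 9.68 to 230.0 CPM in the other 6 arteries. The extraction text of the labels names a brain region, whereas the contractile smooth muscle list, from Myh11 to Myocd, summed to 10560 CPM or more in every artery. Changes of the subunits are therefore also given without control 4, which was below every other control for 9 of the 10 subunits and above them for 1, Itgb8. Because control 4 was singled out from these same data, adjusted p values and calls without it are descriptions only.

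In edgeR, only 1 of the 10 subunits, Itga8, differed between injured and control arteries by the criteria of the study. These were a false discovery rate (FDR) under 0.05 and a fold change above 2. Itga8 was downregulated, as were 2.57% of all genes tested. None of the 10 was upregulated, against 8.31% of all genes, and edgeR's unadjusted p was under 0.05 for Itga8, Itgb1 and Itgb8. With DESeq2 in place of edgeR, Itgb8 was upregulated as well, as were 1601 of 16652 genes. For none of the 10 were the groups fully apart, whereas injury was higher without overlap for 14.2% of genes and lower without overlap for 9.51%. The median log2 fold change of the 10 was -0.01, beside -0.06 over all genes tested. Of the 10 fitted values, 5 were positive, and the values of Itgb3 and Itgb5, both within 1 standard error of 0, changed sign under other settings. Without control 4, Itga8 was downregulated and Itgb8 upregulated, against 3.94% and 12.3% of 14758 genes, and the median of the 10 was -0.26, beside 0.03 over all genes. In whole arteries, fewer cells of a type and less RNA per cell cannot be told apart.

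**Figure D1:**
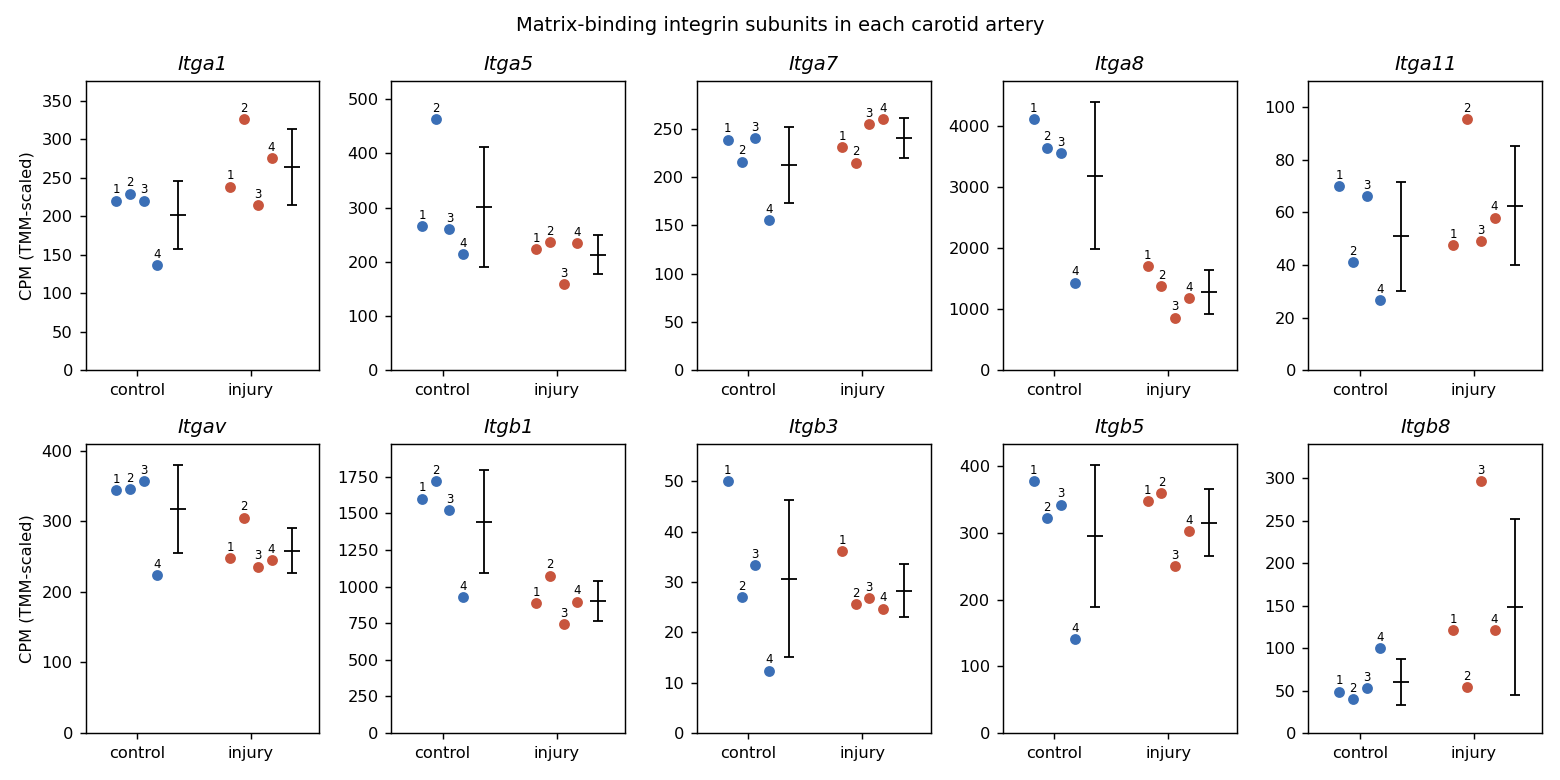
CPM (TMM-scaled, linear axes from 0) of the 10 subunits in the 4 control and 4 injured arteries, with the replicate number above each point and the mean ± SD (n = 4) as a bar. Control 4 is the lowest control for 9 subunits, and Itga8 is at 3556 to 4118 CPM in the other controls against 860.6 to 1705 CPM after injury.

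Itga8 encodes the α8 chain, a receptor subunit enriched in contractile VSMCs. Its level was 4118, 3647, 3556 and 1433 CPM in controls 1 to 4 and 1705, 1372, 860.6 and 1183 CPM in injured arteries 1 to 4. The groups overlapped through control 4 alone, which was below injury 1. The mean was 3189 ± 1200 CPM (SD, n = 4) in the control group and 1280 ± 353 CPM (SD, n = 4) after injury. By the quasi-likelihood test of edgeR, Itga8 fell by 1.32 ± 0.36 (SE) on the log2 scale, which is 2.49-fold, with a 95% interval of -2.14 to -0.50 and a Benjamini-Hochberg adjusted p of 0.0393. The exact two-sided permutation test of its log2 CPM over 70 relabellings gave p = 0.0571. The adjusted p of edgeR was 0.00162 without control 4, with a log2 fold change of -1.57, and 0.000413 without control 4 and injury 3, with -1.41. Leaving out any other single artery ended the call, at an adjusted p of 0.0571 to 0.121 in edgeR and log2 fold changes of -1.49 to -1.17. With the replicate number as a block, the log2 fold change was -1.26 and the adjusted p in edgeR 0.084, so that Itga8 was not called there either.

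The sum of the contractile smooth muscle list moved in the same way as Itga8. The 8 markers summed to 37310 to 50550 CPM in controls 1 to 3, 17430 CPM in control 4 and 10560 to 16610 CPM in the injured arteries, and 5 of 8 were downregulated and 0 upregulated. The other 3 were not called, among them Des with a log2 fold change of -0.08. Control means were 12370, 12400 and 8587 CPM for Myh11, Acta2 and Tagln and at most 1597 CPM for the others. The sum and percentages of it therefore mostly reflect these 3 genes. None of the 8 was at 0 in every artery, and the part of this list in the fall of Itga8 was not tested. Within an artery, Itga8 amounted to 8.15% to 9.53% of the summed list in the control group, control 4 included at 8.22%, and to 8.15% to 10.3% after injury. The groups overlapped, and injured arteries 1 and 2 were above every control. Relative to the list, 8 of the 10 subunits were higher after injury with no overlap between the groups, as were 48.1% of 14351 genes. Because the sum of the list was lower after injury, a gene that fell less than the list is higher by this measure. Itgb5, for example, amounted to 0.743% to 0.919% of the list in the controls and 2.10% to 2.53% in the injured arteries. Itgb1 went from 3.17% to 5.33% in the controls to 5.34% to 7.56% after injury, so its groups were apart by a narrow gap.

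Over the 8 arteries, the genes whose log2 CPM was most like that of Itga8, out of 14349 compared, were Kank1, Pcdh7 and LOC686753. Their Pearson r was 0.99 for each, a description over arteries that share the contrast and the low control 4. Kank1 encodes a talin-binding adaptor of the cell cortex, and it fell by 1.03 ± 0.28 (SE) on the log2 scale (edgeR, adjusted p = 0.0389). Pcdh7, a protocadherin, had -0.90 and did not pass the fold change criterion. LOC686753 was downregulated, with -1.16 (edgeR, adjusted p = 0.0341).

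**Figure D2:**
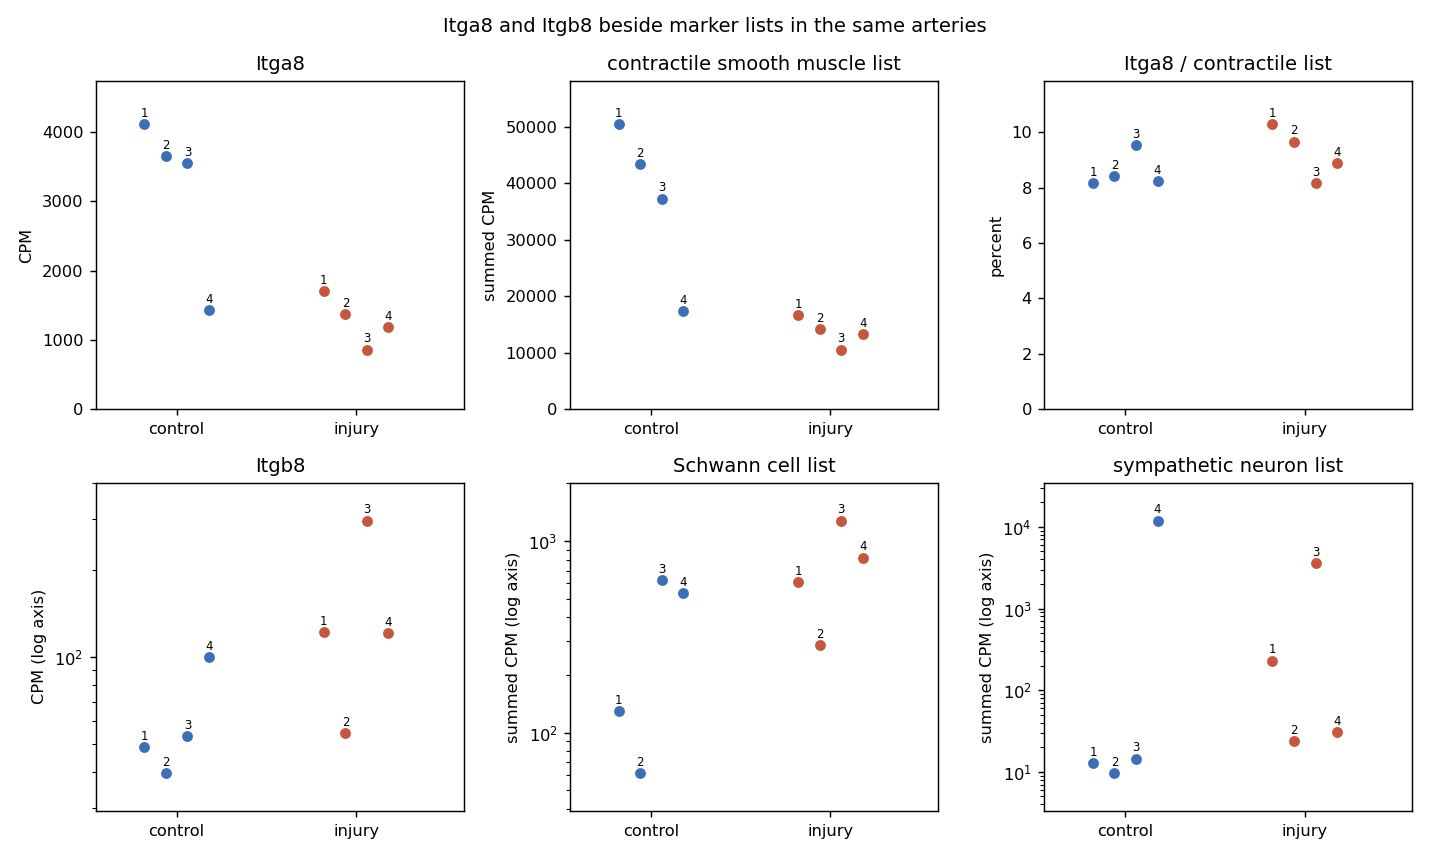
Upper panels: Itga8 in CPM, the summed CPM of the contractile smooth muscle list and Itga8 as a percentage of that sum. Lower panels (log axes): Itgb8 in CPM and the summed CPM of the Schwann cell and sympathetic neuron lists. Points are single arteries with their replicate number. The percentage in the upper right panel is 8.15% to 10.3% in all 8 arteries, and injury 3 is the highest injured artery in all 3 lower panels.

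Itgb1 encodes the β1 chain shared by α1, α5, α7, α8 and α11. Its level was 1601, 1718, 1520 and 928.1 CPM in the controls and 887.3, 1074, 744.6 and 897.3 CPM after injury. Controls 1 to 3 were above every injured artery and control 4 was among them. The fitted change was -0.68 ± 0.22 (SE) on the log2 scale, with a 95% interval of -1.19 to -0.17 (edgeR, adjusted p = 0.0731), and Itgb1 was not called. DESeq2 gave -0.695 with an adjusted p of 0.017, which passed the FDR but not the fold change criterion. Without control 4, edgeR gave -0.85 with an adjusted p of 0.00307, and again only the FDR criterion was passed. Itgav, the αv chain, was also lower there by the FDR alone, with -0.44 (adjusted p = 0.0202, edgeR), as were 12.9% of all genes. Without control 4, the groups were apart with injury lower for 4 of the 10 subunits, Itga5, Itga8, Itgav and Itgb1, against 18.1% of genes, and with injury higher for 1, Itgb8, against 22.2% of genes.

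Itga5 encodes the α5 chain of the main fibronectin receptor. It was at 266.4, 463.8, 260.2 and 213.6 CPM in the controls and 223.0, 236.2, 159.0 and 233.8 CPM in the injured arteries. Control 2 was well above all others and injury 3 below all others. On the log2 scale, injury minus control was -0.50 (95% interval -1.09 to 0.09, edgeR, adjusted p = 0.232). It was -0.22 without control 2 and -0.64 without control 4. The sum of the endothelial markers was also highest in control 2, at 2294 CPM. It was 867.5 to 1335 CPM in the other controls and 752.7 to 1078 CPM after injury. Vwf, the 1 downregulated marker of the 7, held 1487 CPM of the sum in control 2. The 2 upregulated markers, Cdh5 and Kdr, were higher in every injured artery than in any control. None of the 7 was at 0 throughout, and their part in the level of Itga5 was not tested.

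The collagen-binding chains α1 and α11 were not called. Itga1 was at 220.3, 229.4, 220.3 and 136.4 CPM in the controls and 238.4, 326.7, 214.2 and 275.9 CPM after injury. Controls 1 to 3 lay within 10 CPM of each other and injury 2 was the highest artery. Its log2 fold change was 0.39 (95% interval -0.09 to 0.86, edgeR, adjusted p = 0.244), or 0.24 without control 4. Itga11, which is typical of fibroblasts and binds fibrillar collagen, was at 69.9, 41.0, 66.3 and 26.6 CPM in the controls and 47.5, 95.6, 49.1 and 58.0 CPM after injury. Its groups overlapped, with a log2 fold change of 0.30 (95% interval -0.51 to 1.10, edgeR, adjusted p = 0.608) that was 0.08 without control 4, 0.018 without injury 2 and 0.48 without control 1. The 5 fibroblast markers summed to 1802 to 3550 CPM in the controls and 1832 to 3122 CPM after injury, with 1 upregulated, 2 downregulated and none at 0 throughout.

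Itga7, the laminin-binding α7 chain of smooth and skeletal muscle, was not called. Its level was 238.9, 216.1, 240.2 and 155.9 CPM in the controls and 231.6, 215.1, 254.9 and 260.6 CPM in the injured arteries. Apart from control 4, all arteries lay between 215.1 and 260.6 CPM. The fitted log2 fold change was 0.18 (95% interval -0.19 to 0.55, edgeR, adjusted p = 0.498), against 0.05 without control 4. Skeletal muscle markers were higher in the injured arteries, at a sum of 303.8 to 1100 CPM against 84.5 to 252.9 CPM, with 7 of 9 upregulated and none at 0 throughout. Injury 4 was highest both for this list and for Itga7, but injury 3 was the lowest injured artery for the list and the second highest for Itga7, and the part of muscle transcripts in the level of Itga7 was not tested.

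The αv chain and its partners β3 and β5 had log2 fold changes between -0.30 and 0.09. Itgav was at 344.4, 345.5, 356.5 and 223.4 CPM in the controls and 247.4, 305.3, 235.7 and 244.6 CPM after injury. Controls 1 to 3 were above every injured artery, control 4 was below all of them, and the adjusted p in edgeR was 0.3 for a log2 fold change of -0.30 (95% interval -0.71 to 0.11). Itgb3, the β3 chain that also pairs with αIIb on platelets, was at 50.0, 27.0, 33.3 and 12.4 CPM in the controls and 36.1, 25.6, 26.7 and 24.7 CPM after injury. The injured arteries lay within the range of the controls, and the log2 fold change was -0.12 (95% interval -0.97 to 0.74, edgeR, adjusted p = 0.859), or -0.38 without control 4. Of 5 platelet markers, 2 had enough counts for a test and 0 were called. Gp1bb was listed at 0 in every artery, which is not read as absence of the transcript. The list summed to 5.07 to 18.1 CPM in the controls and 18.4 to 26.4 CPM after injury. Itgb5, the vitronectin-binding β5 chain, was at 377.3, 322.2, 342.7 and 140.2 CPM in the controls and 348.3, 360.2, 250.1 and 303.3 CPM after injury. Control 4 was below every other artery, controls 2 and 3 lay within the range of the injured arteries and control 1 lay above it. For Itgb5, the log2 fold change was 0.09 (95% interval -0.58 to 0.77, edgeR, adjusted p = 0.858), and it was -0.14 without control 4.

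Itgb8, the chain that with αv binds latent TGF-β, had the largest positive fitted change of the 10, although it was not called. Its level was 48.6, 39.6, 53.2 and 99.9 CPM in the controls and 121.5, 54.4, 296.5 and 121.0 CPM in the injured arteries. Injury 3 was far above the others, control 4 was the highest control, and injury 2 lay beside controls 1 to 3. In the fit of all 8 arteries it was 1.30 ± 0.51 (SE) on the log2 scale, with a 95% interval of 0.12 to 2.47 (edgeR, adjusted p = 0.126). Without control 4 it was 1.65 (adjusted p = 0.041), and without control 4 and injury 3 it was 1.07 (adjusted p = 0.0212), and edgeR called Itgb8 in both. Without injury 3 alone it was 0.71 and not called. Leaving out any single artery other than control 4 gave no call, at an adjusted p of 0.0724 to 0.267 in edgeR. DESeq2 with all 8 arteries gave 1.27 with an adjusted p of 0.0418 and called Itgb8.

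The 5 Schwann cell markers summed to 129.6, 61.5, 626.3 and 533.8 CPM in controls 1 to 4 and 611.5, 285.9, 1277 and 818.8 CPM in injured arteries 1 to 4. Injury 3 was the highest and control 2 the lowest artery for both this list and Itgb8, and injury 2 was the lowest injured artery for both, whereas control 3 was high for the list and not for Itgb8. Of the list, 0 of the 5 were called, and 2 were upregulated without control 4. Sox10, the transcription factor of the glial lineage, was at 3.17, 0.41, 15.5 and 79.4 CPM in the controls and 59.9, 28.7, 144.7 and 87.2 CPM after injury. Among the neuron markers, 0 of 6 tested were called (2 were upregulated without control 4), all 8 had counts, and the sum was 11920 CPM in control 4, 3604 CPM in injury 3, 230.0 CPM in injury 1 and 23.9 and 30.7 CPM in injured arteries 2 and 4. Their order was not that of Itgb8, since control 4 was above injury 3 and injured arteries 1 and 4, with 121.5 and 121.0 CPM of Itgb8, differed in the sum. The part of nerve transcripts in the level of Itgb8 was not tested. The genes most like Itgb8 over the 8 arteries were Ntng2, Usp6nl and Entpd2, with Pearson r of 0.98, 0.97 and 0.97. None of the 3 was called, and their log2 fold changes were 0.86, 0.46 and 1.03.

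**Figure D3:**
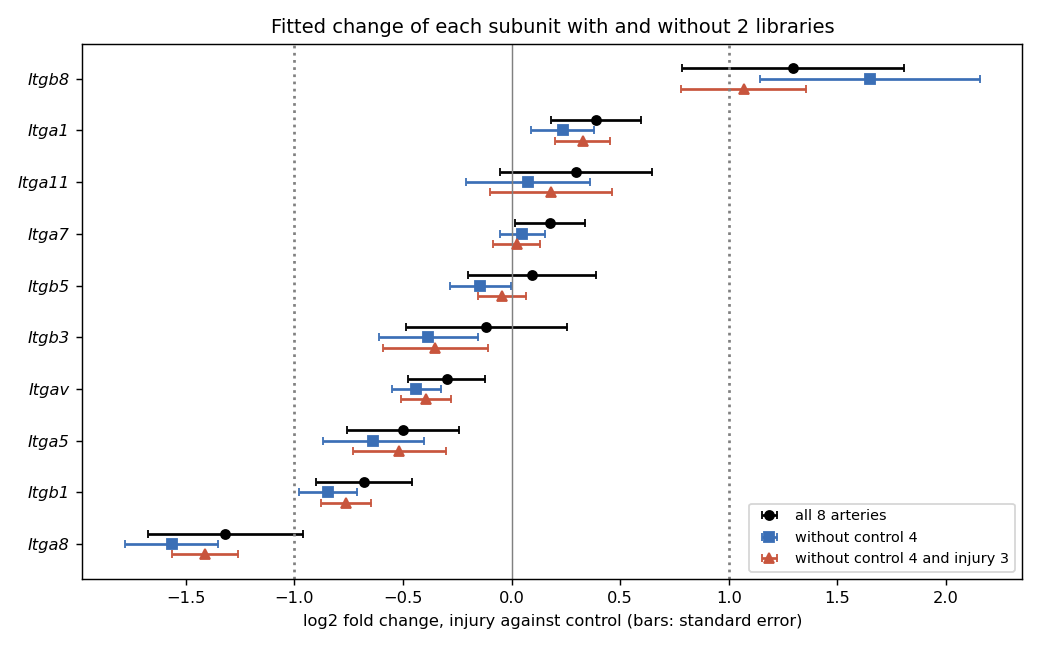
Log2 fold change of injury against control with its standard error (bars) from edgeR for the 10 subunits, with all 8 arteries (black), without control 4 (blue) and without control 4 and injury 3 (red); dotted lines mark a fold change of 2 in either direction. Itga8 lies between -1.57 and -1.32 and Itgb8 between 1.07 and 1.65 in these fits.

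Ratios of subunits within an artery do not depend on the scaling of the library, and 6 pairs were compared. The subunits of a pair share a partner or a ligand or, for Itga7 with Itgb1 and Itgav with Itgb1, can join each other. The values themselves also reflect transcript length, so only their difference between the groups is of use. Itgav relative to Itgb1 was higher in every injured artery than in any control, with a log2 ratio of -1.84, -1.81, -1.66 and -1.87 after injury against -2.22, -2.31, -2.09 and -2.05 in the controls. The difference of 0.37 was larger than the SD of 0.12 and 0.10 within the groups, and the groups did not overlap, control 4 included. The exact two-sided permutation p was 0.0286, the smallest that 4 arteries against 4 allow, and 0.0857 after adjustment over the 6 pairs, so it did not pass the threshold. Itga7 to Itgb1 gave a difference of 0.85 with the same p values and no overlap, from -2.74 ± 0.18 to -1.90 ± 0.33 (SD, n = 4). Both ratios have Itgb1 as the denominator, so they are not independent. Itgb1 itself had a fitted log2 fold change of -0.68, so a gene that fell less than Itgb1 is higher by such a ratio. How many of all genes were apart relative to Itgb1 was not counted. Itga5 to Itga8, both RGD-binding partners of β1, differed by 0.80 with an overlap and an adjusted exact p of 0.114. For Itga11 to Itga1, Itgb3 to Itgb5 and Itgb8 to Itgb5, the differences were -0.06, -0.14 and 0.96, and the adjusted exact p was 0.857, 0.617 and 0.471. Itgb8 to Itgb5 differed by 1.56 without control 4 and by 0.43 without injury 3. With an artery left out, the range was -0.229 to -0.004 for Itgb3 to Itgb5, the latter without control 1, and -0.202 (without control 2) to 0.073 (without control 1) for Itga11 to Itga1.

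**Figure D4:**
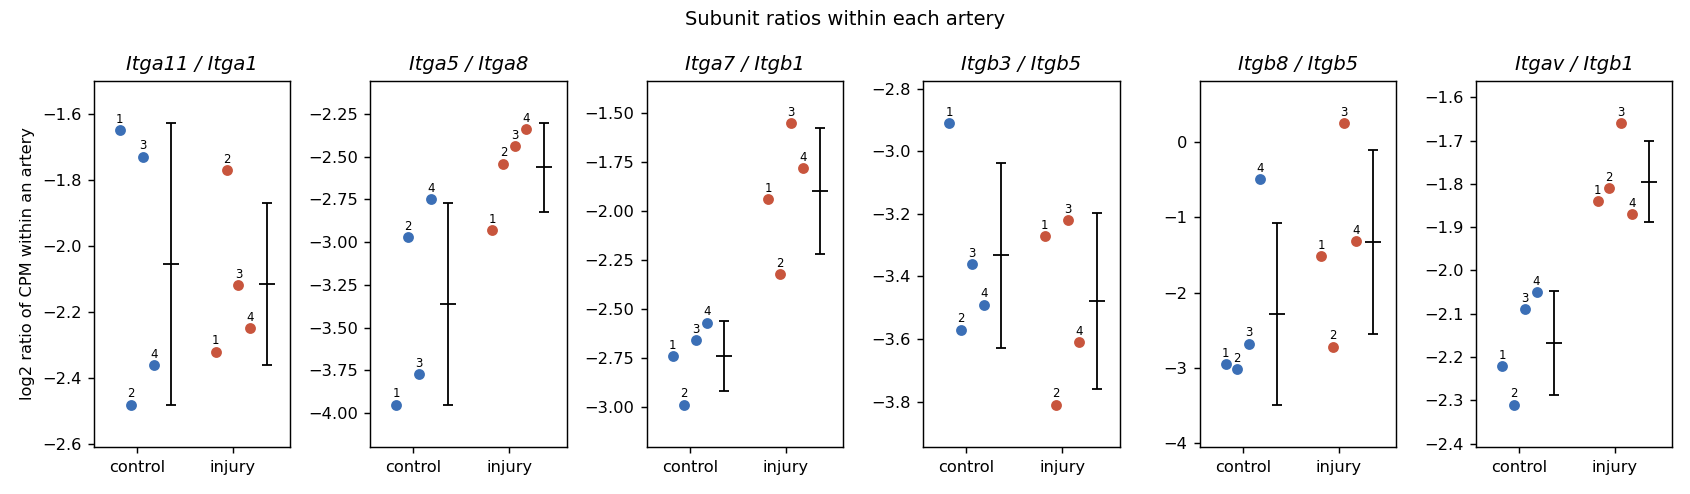
Log2 ratio of the CPM of 2 subunits in each control and injured artery, with the replicate number above each point and the mean ± SD (n = 4) as a bar; each panel has its own axis. The groups are apart for Itga7 to Itgb1 and for Itgav to Itgb1 and overlap for the other 4 pairs.

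Of the 16 other subunits of the integrin family, 15 could be tested, 8 were upregulated and 1 was downregulated, with a median log2 fold change of 1.43. Without control 4, the counts were 10 and 1 and the median 2.09. Over all genes tested, 8.31% were upregulated and 2.57% downregulated, or 12.3% and 3.94% without control 4. The largest rises were those of chains of leukocyte integrins, namely Itgax with 5.42, Itgb2 with 5.09 and Itgam with 3.89 on the log2 scale, and Itgad, which had at most 2 counts in any control and 20 to 27 counts in each injured artery. The 7 macrophage markers summed to 148.2 to 240.5 CPM in the controls and 1395 to 2249 CPM after injury, with 6 upregulated and none at 0 throughout, and their part in these rises was not tested. Itga2, whose chain pairs with β1 and binds collagen, was also upregulated, with 1.22 on the log2 scale (edgeR, adjusted p = 0.00419). Its level was 3.53 to 4.93 CPM in the controls and 7.94 to 10.6 CPM after injury. Itga9, whose chain pairs with β1 and binds tenascin-C and osteopontin, fell by 1.30 ± 0.35 (SE) on the log2 scale (edgeR, adjusted p = 0.0396). The mean of Itga9 was 532.3 ± 214 CPM (SD, n = 4) in the controls and 215.8 ± 54.8 CPM (SD, n = 4) in the injured arteries. The groups overlapped through control 4, which at 224.3 CPM lay within the injured range of 163.9 to 289.7 CPM. The α6 and β4 chains of laminin receptors, Itga6 and Itgb4, had log2 fold changes of 1.43 and 0.89 and were not called. Without control 4, they were called at 2.09 and 1.59 (edgeR, adjusted p = 0.00302 and 0.0419). Like Itgb8, both were highest in injury 3 and were highest among the controls in control 4, with 99.4 CPM of Itga6 and 408 CPM of Itgb4 there.

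Of 29 adaptors of integrin adhesions, 27 could be tested, 2 were upregulated and 2 downregulated, with a median of -0.34. Without control 4, there were 3 and 5 with -0.23. The shares over all genes tested were 8.31% up and 2.57% down, or 12.3% and 3.94% without control 4. Parvg and Fermt3, the parvin and kindlin of blood cells, rose by 3.41 and 2.58 on the log2 scale (edgeR, adjusted p = 0.000226 for each). Tns1, a tensin that binds the β tail and actin, was at 3452 ± 1110 CPM in the controls and 1287 ± 102 CPM after injury (SD, n = 4 each), or -1.42 on the log2 scale (edgeR, adjusted p = 0.0104). Lims2, a PINCH protein of the integrin-linked kinase complex, had -1.39 (edgeR, adjusted p = 0.00279). For both, all injured arteries were below all controls, control 4 included. Fermt2, the kindlin of mesenchymal cells, had -0.63 and did not pass the fold change criterion. Flna, a filamin, was listed at 0 throughout, which is not read as absence, since the counting tool is not given.

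Of 14 collagen and laminin chains, 2 were upregulated and 0 downregulated, with a median of 0.34, against 1 and 0 with 0.14 without control 4. Here and for the RGD ligands below, the shares over all genes tested were 8.31% up and 2.57% down. They were 12.3% and 3.94% without control 4. Col4a1, of the basement membrane, had a log2 fold change of 1.09 and Lama3, a laminin α chain, 1.02 (edgeR, adjusted p = 0.00968 and 0.0105). Col4a1 no longer passed the fold change criterion without control 4, at 0.94, and with the replicate number as a block 0 of the 14 chains were called. Of the 14 RGD ligands and partners of latent TGF-β, 13 were matched and tested (Npnt was not analysed here), 7 were upregulated and 0 downregulated, with a median of 1.21, against 8 and 0 with 1.26 without control 4. Tnc, encoding tenascin-C, a ligand of α8, α9 and αv integrins, was at 15.2 ± 10.6 CPM in the controls and 478.3 ± 165 CPM after injury (SD, n = 4 each), or 4.97 on the log2 scale (edgeR, adjusted p = 0.00109). Postn, encoding periostin, a ligand of αv integrins, had 3.13, Thbs1, encoding thrombospondin-1, 2.14, and Vtn, encoding vitronectin, 1.84, and all 3 were called. Fn1, the fibronectin ligand of α5β1, was at 1580 to 4820 CPM in the controls and 3120 to 6050 CPM after injury, with a log2 fold change of 0.45, and was not called.

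**Figure D5:**
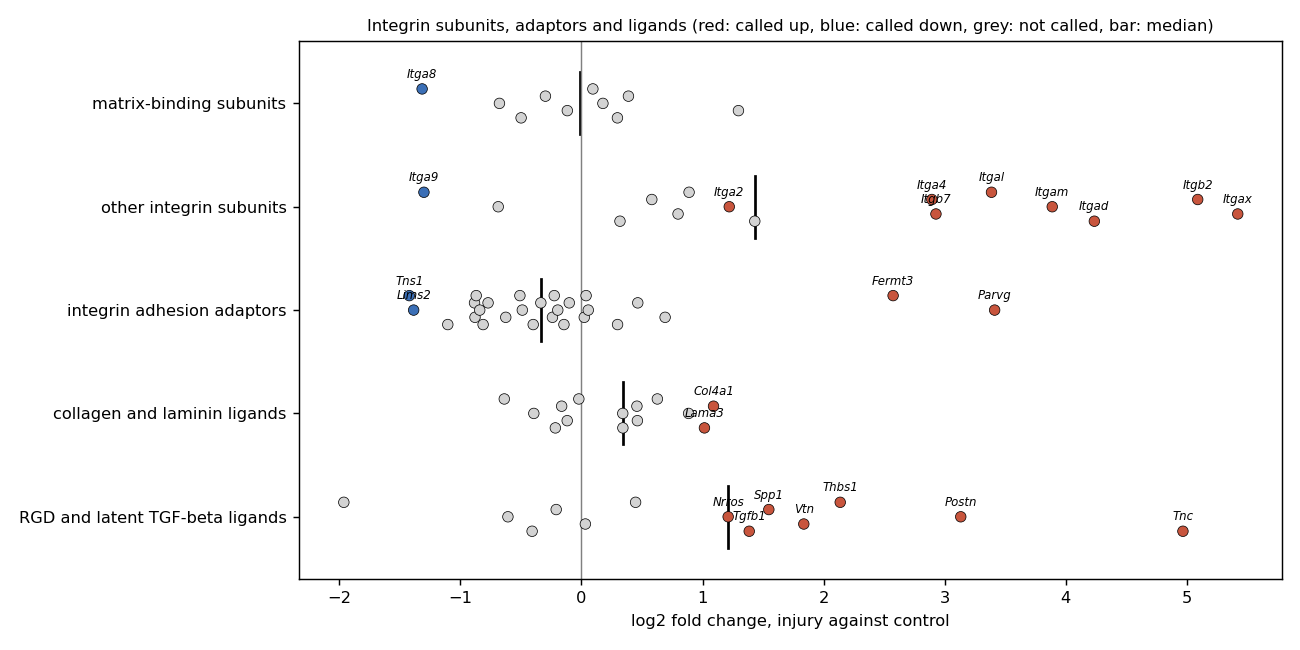
Log2 fold change of each tested gene (1 point each) in the 10 matrix-binding subunits and in 4 lists of other integrin subunits, adaptors and ligands; red points were called up, blue points down and grey points not called, and the black bar is the median. The medians are -0.01 for the 10 subunits and 1.43, -0.34, 0.34 and 1.21 for the lists from top to bottom.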

How the data were processed

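The authors deposited raw read counts per gene symbol for 8 carotid arteries, without normalization. HISAT2 2.0.4 is named in the submitters' processing notes. The counting tool, strand setting and genome build are not given in the sources used here, so overlapping genes are uncertain. All 8 columns were mapped by the labels. In edgeR 4.0.16 (R 4.3.3), 14359 of 37209 genes passed filterByExpr, and 4 injured were compared with 4 control arteries by the quasi-likelihood test with TMM factors and Benjamini-Hochberg adjustment over all genes tested. A call needed a fold change above 2 with an FDR below 0.05, the criteria of the study, which used DESeq. Standard errors came from the F statistic. The main fit and the permutation tests treated the arteries as unpaired, since the labels do not give the pairs. Log2 CPM used a prior count of 2. P-values measure the spread between these arteries.

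The 10 subunits, the lists and the markers were chosen with earlier results of these data known, and the percentages of marker lists and the fit without control 4 and injury 3 were chosen after the values were seen. Genes named are the 10 subunits, the called genes of each list (at most the 4 largest rises and falls) and the 3 genes most like the extreme subunits. Itga2, Itga6, Itgb4, Fermt2, Flna, Fn1, Sox10, Myh11, Acta2, Tagln, Des and Gp1bb were named after their values were seen. Listed symbols were matched by symbol, and Tns2 and Adgre1 by a GRCr8 synonym. Alternatives were DESeq2 1.42.0, other factors, filters and criteria, the replicate block and each artery left out. A listed gene is not reported here. The fits were checked on simulated counts that held no outlying library and no pairing, so the check does not cover an artery such as control 4. The permutation test was checked on made-up examples only.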

Additional observations from a re-analysis of the deposited data

Results flagged for a closer look

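Subunits, ratios and marker lists were examined for single arteries far from the other 3 of their group. By Dixon's 95% criterion, which divides the distance from the next artery by the range of the group, 7 of 48 groups held such an artery, and about 2.4 would do so by chance. It was control 4 in 4 groups, with a Dixon ratio of 0.902 for Itga1 (136.4 CPM against 220.3 in the nearest control), 0.909 for Itgav (223.4 against 344.4 CPM), 0.867 for the log2 ratio of Itgb8 to Itgb5 (-0.49 against -2.68) and 1.0 for the sympathetic neuron markers (11920 against 14.55 CPM).

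In the injured arteries, injury 3 had a Dixon ratio of 0.942 for the sympathetic neuron markers (3604 against 230.0 CPM) and 0.83 for Itga5 (159.0 against 223.0 CPM), and injury 2 had 0.833 for Itgav (305.3 against 247.4 CPM). The cause of these gaps was not tested.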

How the results depend on the processing

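Counts moved by over 1.5 times as follows. Of the 10 subunits, 1 was upregulated with DESeq2 and without control 4 and injury 3, against 0, and 0 to 1 with an artery left out. With upper-quartile factors, library totals only, no filter, the replicate block or a test against a fold change of 2, 0 were downregulated, and 0 to 1 with an artery left out. Over all genes, 715 rose when 10 or more counts were asked of every sample, 600 against a fold change of 2, 1800 without control 4 and injury 3, and 945 to 1817 with an artery left out. Downregulated were 234 with the replicate block, 918 with the FDR alone, 61 against a fold change of 2, 673 without control 4 and injury 3, and 197 to 581 with an artery left out. Among the fits with 1 artery left out, the highest counts of both came without control 4. Of the other integrin subunits, 5 were called with at least 10 counts in every sample. Of the adaptors, 7 were called with the FDR alone, 7 without control 4 and injury 3, 2 against a fold change of 2, and 4 to 8 with an artery left out. Of the collagen and laminin ligands, 1 was called with DESeq2, RLE factors or without control 4 and injury 3, 0 with the block or against a fold change of 2, and 1 to 2 with an artery left out. Of the RGD ligands, 2 were called against a fold change of 2.

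The log2 fold change of Itga8 was -1.26 with upper-quartile factors and with the replicate block, -1.12 with library totals only, -1.33 without a filter and -1.32 against a fold change of 2, each not called, and -1.57 to -1.17 with an artery left out. Its adjusted p lay between 0.000413 and 0.739 over all alternatives. Itgb8 was called at 1.27 with DESeq2 and 1.07 without control 4 and injury 3, with 0.71 to 1.65 for an artery left out. The sign of Itgb3 turned with library totals only (0.081) and the block (0.023), with -0.38 to 0.22 for an artery left out, and that of Itgb5 without control 4 and injury 3 (-0.044), with -0.14 to 0.23. The ratio of Itga11 to Itga1 ranged from -0.202 to 0.073 with an artery left out, changing sign. Of 180 alternative values of the subunits, 160 kept their sign and their call, among them those with the FDR alone, which repeat the main fit. The 12 that lost a call were all of Itga8, the only subunit called in the main fit. Another 3 gained a call and 5 changed sign. Library totals moved the median of all genes from -0.06 to 0.12. Arteries with the same number deviated from their groups with correlations of 0.301, 0.45, -0.52 and -0.416. These cannot show whether equal numbers are 1 rat, because control 4 and injury 3, which differ in number, stood far from their groups in neuron markers. The labels do not say that equal numbers are 1 rat, so the numbers were not taken to pair arteries. The block called 1137 of the 1562 genes again. The cause of the correlations was not tested.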
